A study of Mus musculus with 9 samples.

Results

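Transcript levels of genes that respond to p53 and to DNA damage were followed through the progression of mouse ovarian surface epithelial (MOSE) cells from a non-malignant to a malignant stage. The genes were Trp53, which encodes p53, and 9 genes known as targets of p53 or as DNA damage response genes: Mdm2, Cdkn1a, Ccng1, Gadd45a, Gadd45b, Btg2, Phlda3, Sesn1 and Trp53inp1. They were picked by name, by a rule that uses no measured value, and a gene was measured through the probe sets that name it and no other gene. Of the 10 genes, 9 had such probe sets, 21 in all out of the 45101 on the array, and these 9 were among 18193 genes named in this way. Trp53 itself was not analysed here. All 9 genes had at least 1 probe set with a signal over 500 on 1 or more arrays, the minimum for testing, which 17 of their 21 probe sets and 7952 genes in all reached.

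The data came from 9 Affymetrix arrays of the mouse genome that held total RNA from 3 stages, 3 arrays each, of a single cell series that came from the ovarian surface epithelium of C57BL6 mice and transformed in culture without an added oncogene or carcinogen. The early cells (MOSE-E) were at passages 13, 14 and 15 and are labelled non-malignant, the intermediate cells (MOSE-I) were at passages 63, 71 and 73 and are labelled intermediate in malignant potential, and the late cells (MOSE-L) were at passages 136, 142 and 143 and are labelled malignant. All were grown in the same medium with serum, insulin, transferrin and selenite, and the labels name no damaging agent. The 3 arrays of a stage are described as biological replicates and are different passages of 1 heterogeneous culture, so that p-values measure the spread between passages and say nothing of other MOSE isolates. Arrays are named by the letter of their stage and the replicate number, so that I1 is the MOSE-I array at passage 63. In RNA from a whole culture, fewer cells that express a gene and less RNA per cell cannot be told apart.

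The transcription factor p53 is kept scarce in unstressed cells by the ubiquitin ligase Mdm2, which is itself a p53 target, so that the factor induces its own inhibitor. After DNA damage, kinases that sense breaks and stalled replication free p53 from Mdm2, and p53 then binds response elements built from pairs of a decamer, the half-site, in genes that stop the cell cycle, repair DNA, restrain growth signals or kill the cell. Several of these genes also answer to other inputs, among them the integrated stress response, FoxO factors and inflammatory signals, so that their mRNA levels are not a measure of p53 alone. Loss of p53 function is a defining event of high-grade serous ovarian cancer, and the ovarian surface epithelium is one of the tissues from which mouse models of this cancer are made.

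The promoters of the genes differed in the elements they hold, and 5 are shown because they stand for the courses described below: Cdkn1a and Mdm2, whose mean was lowest in MOSE-I cells, Gadd45a and Btg2, which were higher in MOSE-L cells, and Gadd45b, which was lower there. Each sequence is the 250 bases before a transcription start of RefSeq on the build GRCm38.p6, written 5′ to 3′ on the strand of the gene, with the p53 half-site, the cyclic AMP response element TGACGTCA and the TATA box TATAAA in capitals.
Cdkn1a (first start, chr17:29090729-29090978, plus strand): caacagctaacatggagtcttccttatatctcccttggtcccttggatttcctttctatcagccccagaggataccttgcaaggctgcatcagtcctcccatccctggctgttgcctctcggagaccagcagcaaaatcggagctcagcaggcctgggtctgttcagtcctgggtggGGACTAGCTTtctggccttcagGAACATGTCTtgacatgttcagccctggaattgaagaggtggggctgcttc
Mdm2 (chr10:117710759-117711008, minus strand): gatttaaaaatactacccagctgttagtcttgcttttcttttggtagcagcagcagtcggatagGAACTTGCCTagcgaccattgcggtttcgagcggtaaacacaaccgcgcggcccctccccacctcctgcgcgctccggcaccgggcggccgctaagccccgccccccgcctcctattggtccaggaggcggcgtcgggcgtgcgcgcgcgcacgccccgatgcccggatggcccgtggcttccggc
Gadd45a (chr6:67037408-67037657, minus strand): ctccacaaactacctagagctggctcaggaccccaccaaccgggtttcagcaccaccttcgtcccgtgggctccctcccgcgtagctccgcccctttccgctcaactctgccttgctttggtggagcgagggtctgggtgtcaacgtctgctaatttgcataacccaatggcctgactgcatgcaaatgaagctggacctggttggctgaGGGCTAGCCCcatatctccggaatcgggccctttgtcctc
Btg2 (chr1:134079156-134079405, minus strand): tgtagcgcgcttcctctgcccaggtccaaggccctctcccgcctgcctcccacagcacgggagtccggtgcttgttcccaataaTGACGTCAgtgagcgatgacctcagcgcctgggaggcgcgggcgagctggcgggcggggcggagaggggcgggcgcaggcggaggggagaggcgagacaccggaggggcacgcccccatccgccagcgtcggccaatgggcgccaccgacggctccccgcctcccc
Gadd45b (chr10:80929841-80930090, plus strand): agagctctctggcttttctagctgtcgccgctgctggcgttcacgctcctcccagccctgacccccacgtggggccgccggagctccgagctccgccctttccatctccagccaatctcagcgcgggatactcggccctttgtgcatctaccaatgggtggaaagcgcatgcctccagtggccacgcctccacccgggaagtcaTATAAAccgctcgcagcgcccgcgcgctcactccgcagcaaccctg

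Both strands were searched for each motif. The half-site pattern reads the same on both strands, the pattern was taken without allowing a mismatch, and none of the capital stretches overlaps another. Among the 8 analysed genes with an entry, which have 10 starts between them, 5 windows held a half-site, against 7.13% of the 32851 windows of this length in the mouse. The first start of Cdkn1a held 2, at 73 to 64 and at 51 to 42 bases before the start. Those of Mdm2 lay at 186 to 177 bases, of Ccng1 at 185 to 176 bases, of Gadd45a at 40 to 31 bases, and of the second start of Sesn1 at 173 to 164 bases before the start. The cyclic AMP response element was in the window of Btg2, at 166 to 159 bases, and in 1.55% of all windows. Gadd45b had the TATA box, 46 to 41 bases before its start, as did 12.4% of all windows. These are matches of letters in a short window, and neither binding nor the use of these starts was measured here. Trp53inp1 is named only.

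The signals are linear intensities that the authors computed with MAS 5.0 and scaled on each array to a trimmed mean of 500. Changes are differences of log2(signal + 50) between stages, tested in limma with Benjamini-Hochberg adjustment over all 13845 probe sets tested, and a gene was called higher or lower when its adjusted p was no more than 0.05 and its change at least 1 in size. Each gene is represented by whichever of its tested probe sets had the highest mean over the 9 arrays. Stage values are means with the SD of 3 arrays.

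Array quality and cell markers were read before the genes. Median signals ran from 93.2 to 130.0. The ratio of 3′ to 5′ signal of the Actb control, which rises as RNA is degraded or copied short, was 1.12 to 1.45 on 8 arrays and 1.83 on L3, while the Gapdh ratio of 0.727 on L3 was the lowest of the 9. Over all tested probe sets L3 correlated at 0.889 and 0.907 with the arrays of its stage, I1 at 0.939 and 0.947 and E1 at 0.951 and 0.955, against 0.934, 0.985 and 0.986 between the other arrays of those stages. Whether RNA quality on L3 had a part in the values was not tested. Without L3 Gadd45a, Trp53inp1, Sesn1 and Btg2 kept their calls against MOSE-E cells. All 8 markers of ovarian surface epithelium, keratins, Msln and Wt1 among them, passed a signal of 500 on at least 1 array, with sums of 42147 to 63155 over all arrays, and 0 of 4 endothelial and 0 of 5 leukocyte markers did. The sums rest on the brightest members, and not all epithelial markers persisted. The keratin gene Krt7 went from 2793 to 3703 at MOSE-E to 75.8 to 545 at MOSE-I and 89.3 to 202 at MOSE-L, and the E-cadherin gene Cdh1 from 486 to 949 at MOSE-E to 42.1 to 73.2 and 6.89 to 93.3. Smooth muscle markers, 3 of 5 over 500, had sums of 33037 to 93513 at MOSE-E, 7015 to 30244 at MOSE-I and 583 to 1796 at MOSE-L, and fibroblast markers, 5 of 7 over 500, had sums of 51936 to 125379, 27706 to 80142 and 36869 to 48644 in the same order. Fibroblast markers went opposite ways between MOSE-E and MOSE-L cells: the collagen gene Col1a2 gave 22129 to 45779.9 and then 195 to 277, Col1a1 9034 to 29046 and then 2396 to 3937, and the proteoglycan gene Dcn 3752 to 6646 and then 19342 to 27205. Of 6 granulosa and steroidogenic markers 1 passed, with sums of 493 to 622, 477 to 679 and 1048 to 2001. Whether these epithelial and mesenchymal transcripts had a part in the changes was not tested.

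By their calls the 9 genes fell into 4 groups. Gadd45a, Trp53inp1, Sesn1 and Btg2 were higher in MOSE-L cells than in both earlier stages. Gadd45b was lower in MOSE-L than MOSE-E cells. Cdkn1a had its lowest mean in MOSE-I cells and was called higher in MOSE-L than MOSE-I cells. Mdm2, Ccng1 and Phlda3 were not called in any comparison and did not share a course. The mean of Mdm2 was lowest in MOSE-I cells, and those of Ccng1 and Phlda3 were highest there and lowest in MOSE-L cells. Between MOSE-L and MOSE-E cells 4 of the 9 were called higher, against 8.11% of all tested genes, and 1 lower, against 7.49%. Their median change was 0.08 and that of all tested genes 0.03. Between MOSE-L and MOSE-I cells 5 were called higher, against 7.38% of all tested genes, and the median change was 1.34, against -0.02 over all. None was called lower in limma in that comparison, against 6.04% of all genes, and Phlda3 alone was lower at an unadjusted p under 0.05. Between MOSE-I and MOSE-E cells limma called 0 of the 9, against 2.29% of all tested genes called higher and 3.61% lower, with 3 genes (Cdkn1a, Mdm2 and Gadd45b) lower at an unadjusted p under 0.05. With the methods' t-test 1 of the 9 passed there without adjustment and 0 with it. The groups did not overlap for 4 genes higher in MOSE-L cells (23.1% of all tested genes) and 2 lower (21.7%) against MOSE-E cells, and for 4 higher (20.7%) and 1 lower (23.5%) against MOSE-I cells. In MOSE-I against MOSE-E cells this held for 1 gene lower (17.8%) and 0 higher (23.4%). The comparisons of MOSE-I and of MOSE-L cells with MOSE-E cells share the MOSE-E arrays.

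**Figure D1:**
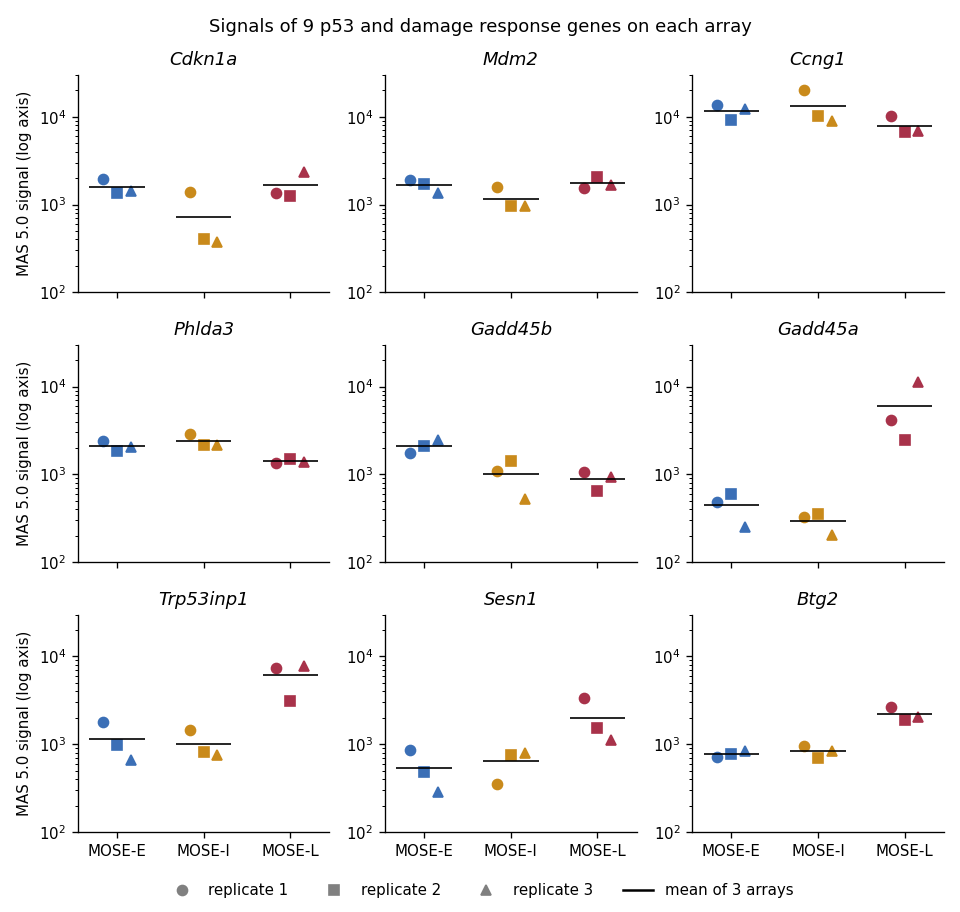
Deposited signal (MAS 5.0, log axis) of 9 p53 and DNA damage response genes on each of the 9 arrays, by stage, with the replicates as different markers and the mean of 3 arrays as a line. Gadd45a, Trp53inp1, Sesn1 and Btg2 lie higher on all 3 MOSE-L arrays than on any other array, and Cdkn1a is at 404 and 373 on the MOSE-I arrays of replicates 2 and 3.

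Mdm2, the ligase that keeps p53 low, was the regulator in this group. It gave signals of 1902, 1716 and 1355 on the MOSE-E arrays, 1569, 959 and 950.3 on the MOSE-I arrays, and 1541, 2043 and 1659 on the MOSE-L arrays (probe set 1423605_a_at; gene at chromosome 10, 117688875 to 117710758, GRCm38.p6). The stage means were 1658 ± 278, 1159 ± 355 and 1748 ± 262 (SD, n = 3). The order was MOSE-L, MOSE-E, MOSE-I, and no neighbours in it were free of overlap. In limma the log2 change was -0.52 (SE 0.23, adjusted p = 0.158) of MOSE-I over MOSE-E cells, 0.60 (adjusted p = 0.0736) of MOSE-L over MOSE-I cells and 0.08 (adjusted p = 0.829) between MOSE-L and MOSE-E cells. A second probe set gave changes of -0.66, 0.48 and -0.18, so that the sign between MOSE-L and MOSE-E cells depended on the probe set. One more, between 4.10 and 63.6 on all arrays, was below the limit for testing. The paralog Mdm4, which binds p53 and has little ligase activity of its own, gave 386, 502 and 383 in MOSE-E, 248, 338 and 280.1 in MOSE-I, and 569.6, 731 and 983 in MOSE-L cells. It was called higher in MOSE-L than MOSE-I cells (log2 change 1.24, SE 0.23, adjusted p = 0.00572) without overlap, and its change of MOSE-L over MOSE-E cells, 0.75 (adjusted p = 0.0358), was under the limit of 1. The call against MOSE-I cells was lost with 200 in place of 50 added to the signal (0.96) and without E1, I1 and L3 together (0.96).

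Cdkn1a, which encodes the cyclin-dependent kinase inhibitor p21 and is the best known p53 target in cell cycle arrest, had the widest spread among the MOSE-I arrays. Its signals were 1943, 1359 and 1436 in MOSE-E cells, 1371, 404 and 373 in MOSE-I cells at passages 63, 71 and 73, and 1353, 1259 and 2376 in MOSE-L cells (1424638_at; chromosome 17, 29090979 to 29100722). The MOSE-I array at passage 63 thus lay within the range of the MOSE-E arrays, while the arrays at passages 71 and 73 lay below every array of the other stages. The means were 1579 ± 317, 716 ± 567 and 1663 ± 619 (SD, n = 3). MOSE-L and MOSE-E cells did not differ beyond the spread of the arrays (log2 change 0.03, SE 0.42, adjusted p = 0.964). The change of MOSE-I over MOSE-E cells was -1.31 (SE 0.42, limma adjusted p = 0.0694), which did not pass, and that of MOSE-L over MOSE-I cells was 1.34 (adjusted p = 0.0383), which did although the groups overlapped. Both results depended on single arrays, and the second was also lost with no filter on signals (adjusted p = 0.0738) and in a fit of those groups alone (0.0733). Without the MOSE-I array at passage 63 the change of MOSE-I over MOSE-E cells was -1.88 with an adjusted p of 0.00761. The call between MOSE-I and MOSE-L cells was lost without E2 or E3, I2 or I3, or L2 or L3, with changes of 1.03 to 1.51 and adjusted p between 0.0514 and 0.132. A second Cdkn1a probe set had the same course, with signals of 1135, 355 and 395 on the MOSE-I arrays, but its change of MOSE-L over MOSE-I cells, 0.93 (adjusted p = 0.106), was not called.

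Ccng1, cyclin G1, a p53 target that recruits a phosphatase to Mdm2, was bright on all arrays. Its signals were 13656, 9248 and 12119 in MOSE-E cells, 20329, 10271 and 9018 in MOSE-I cells, and 10165, 6617 and 6900.4 in MOSE-L cells (1420827_a_at; chromosome 11, 40748552 to 40755309), and the MOSE-I array at passage 63 was the highest of the 9. The stage means of 11674 ± 2238, 13206 ± 6201 and 7894 ± 1972 overlapped. The change between MOSE-L and MOSE-E cells was -0.57 (SE 0.31, limma adjusted p = 0.187) and that between MOSE-L and MOSE-I cells -0.67 (adjusted p = 0.117). In the other tested probe sets of Ccng1 the MOSE-L change against MOSE-E cells was -0.47 and -0.67, also not called.

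Gadd45a, a growth arrest gene that binds the p21 and PCNA proteins and activates stress kinases, had the largest change of the 9. Its signals were 487, 599 and 252 in MOSE-E cells, 329.7, 357 and 204 in MOSE-I cells, and 4173, 2460.0 and 11226 in MOSE-L cells (1449519_at, the only probe set; chromosome 6, 67035096 to 67037407). The lowest MOSE-L array lay above the highest of the 6 other arrays, and the MOSE-L arrays themselves spanned a ratio of 4.56. The means were 446 ± 177, 297 ± 81.9 and 5953 ± 4646 (SD, n = 3), and the last was 13.3 times that in MOSE-E and 20.0 times that in MOSE-I cells, or 7.44 and 11.2 times without L3. The log2 change was 3.38 (SE 0.48, limma adjusted p = 8.55e-04) against MOSE-E and 3.86 (adjusted p = 6.48e-04) against MOSE-I cells. Leaving out each array in turn gave changes of 2.79 to 3.87 against MOSE-E cells, the lowest of them without L3, and the call held in all 9 settings. It did not hold with the methods' t-test, which uses the unlogged signals and each gene's own spread: neither with adjustment nor without it was Gadd45a called against MOSE-E or MOSE-I cells (adjusted p = 0.252 and 0.251).

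Its paralog Gadd45b, an early response gene of TGF-β and NF-κB signalling, went the other way. The MOSE-E arrays gave 1763, 2120.3 and 2475, the MOSE-I arrays 1097, 1422 and 524, and the MOSE-L arrays 1075, 652 and 938 (1449773_s_at; chromosome 10, 80930091 to 80932204). All MOSE-E arrays lay above all others, while MOSE-I and MOSE-L cells overlapped. From 2119.5 ± 356 in MOSE-E cells the mean signal went to 1014 ± 455 at MOSE-I and 889 ± 216 at MOSE-L (SD, n = 3). The change was -1.22 (SE 0.32, limma adjusted p = 0.0193) in MOSE-L and -1.12 (adjusted p = 0.0519) in MOSE-I cells, of which the first was called. That call was lost without E2 (-1.22, adjusted p = 0.0601), E3 (-1.11, 0.0785) or L2 (-1.03, 0.0590). In MOSE-I cells the change was called without I2 (-1.41, adjusted p = 0.0462), L1 (-1.12, 0.0462) or L3 (-1.12, 0.0459). A second probe set passed the adjusted p but not the limit of 1 in both stages, at -0.92 (adjusted p = 0.0141) in MOSE-L and -0.86 (adjusted p = 0.0396) in MOSE-I cells. The remaining paralog, Gadd45g, gave 1041, 3979 and 5487 in MOSE-E cells, 486, 1092 and 546 in MOSE-I cells and 427, 688 and 549.9 in MOSE-L cells. It fell by 2.28 on the log2 scale in MOSE-L cells (SE 0.51, adjusted p = 0.00981), a call kept without each array in turn. In MOSE-I cells its change of -2.02 (adjusted p = 0.0354) was lost without E2 or E3 or I1, I2 or I3, at -2.36 to -1.55 and adjusted p of 0.0501 to 0.159. The 3 paralogs thus had courses of opposite sign: Gadd45a was higher in MOSE-L cells, and Gadd45b and Gadd45g were lower.

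Btg2, an antiproliferative gene whose protein binds the CCR4-NOT deadenylase complex, had the tightest replicates of the genes that rose. It gave 717, 778 and 848 in MOSE-E cells, 963, 706 and 828 in MOSE-I cells and 2647, 1889 and 2040.5 in MOSE-L cells (1416250_at; chromosome 1, 134074865 to 134079155). MOSE-E and MOSE-I cells overlapped, and each MOSE-L array was above them. The means were 781 ± 65.5, 832 ± 129 and 2192 ± 401 (SD, n = 3), a ratio of 2.81 between MOSE-L and MOSE-E cells. The rise was 1.42 against MOSE-E cells (SE 0.19, limma adjusted p = 6.26e-04) and 1.34 against MOSE-I cells (adjusted p = 0.00134), and both calls held without each array in turn. A second probe set showed smaller changes in MOSE-L cells of 0.68 (adjusted p = 0.0337) against MOSE-E and 0.55 (adjusted p = 0.0663) against MOSE-I cells.

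**Figure D2:**
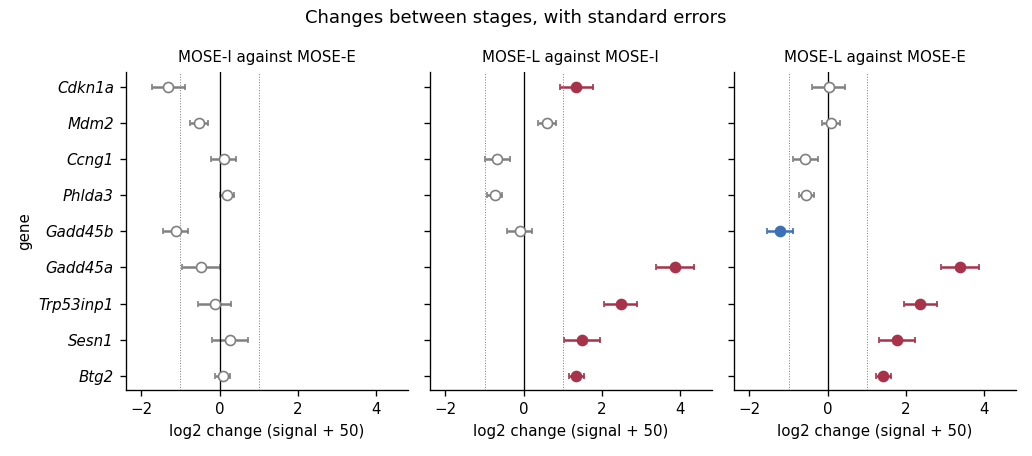
Difference of log2(signal + 50) between stages for the 9 genes (points) with its standard error (bars), one panel per comparison; filled red points were called higher, the filled blue point lower, open grey points were not called, and dotted lines mark a change of 1. In the left panel no point is filled, and Gadd45a stands farthest to the right in the others, at 3.86 and 3.38.

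Phlda3, Sesn1 and Trp53inp1 act on survival, metabolism and stress. Phlda3 encodes a small pleckstrin homology protein that competes with Akt for membrane lipids. It gave 2405, 1829 and 2073 in MOSE-E cells, 2919, 2179 and 2149 in MOSE-I cells and 1342, 1500.4 and 1386 in MOSE-L cells (1449002_at; chromosome 1, 135766085 to 135769134). The MOSE-L arrays lay below all others and close together, at 1409.5 ± 81.6 against 2102 ± 289 in MOSE-E and 2416 ± 436 in MOSE-I cells (SD, n = 3). The change was -0.55 (SE 0.19, limma adjusted p = 0.0507) against MOSE-E and -0.74 (adjusted p = 0.0183) against MOSE-I cells, both under the limit of 1 in size and so not called.

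Sesn1, sestrin 1, restrains the growth kinase complex mTORC1. Its signals were 859.5, 477 and 285 in MOSE-E cells, 355, 761 and 802 in MOSE-I cells and 3374, 1532 and 1108 in MOSE-L cells (1438931_s_at; chromosome 10, 41810574 to 41908436). The MOSE-L arrays were above all others but spread by a ratio of 3.05, and MOSE-E and MOSE-I cells overlapped. The means were 540.5 ± 293, 639 ± 247 and 2005 ± 1205 (SD, n = 3). Sesn1 rose by 1.76 against MOSE-E cells (SE 0.46, limma adjusted p = 0.0179) and by 1.50 against MOSE-I cells (adjusted p = 0.0351). The first call was lost without E2 (1.74, adjusted p = 0.0566) or E3 (1.41, 0.0781), and the second without E2, I1, I2 or I3, or L1 or L2, at 1.05 to 1.69 with adjusted p of 0.0503 to 0.118. In the other tested probe sets the rise against MOSE-E cells was 1.40 (adjusted p = 0.0114) and 1.92 (adjusted p = 0.00791), both called. The probe set with the rise of 1.92 passed the limit for testing on MOSE-L arrays alone. Against MOSE-I cells the rise in these probe sets, 0.78 and 1.08, was not called. With no filter on signals the call against MOSE-I cells was lost (adjusted p = 0.0690), and with the methods' t-test both were, adjusted or not.

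Trp53inp1, a stress protein that promotes p53 phosphorylation and autophagy, gave 1785, 979 and 666 in MOSE-E cells, 1459, 818 and 749.6 in MOSE-I cells and 7418, 3099 and 7682 in MOSE-L cells (1416926_at; chromosome 4, 11156441 to 11174379). The MOSE-I arrays lay within the range of the MOSE-E arrays, and the lowest MOSE-L array was above both. The mean of 6066 ± 2573 (SD, n = 3) in MOSE-L cells was 5.30 times that in MOSE-E cells. The log2 change was 2.36 (SE 0.42, limma adjusted p = 0.00314) against MOSE-E and 2.48 (adjusted p = 0.00359) against MOSE-I cells, and both calls held without each array in turn. A second, dimmer probe set was below the limit for testing, with means of 160.4, 159 and 304 in the 3 stages.

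In each stage at least 1 array was at an end of the range for most of these genes. E1 was the highest of its stage for 6 of the 9 genes, against 43.7% of all tested genes, and L2 the lowest of its stage for 6 of the 9, against 28.3%. I1, at passage 63, was the highest of its stage for 6 of the 9 genes, against 40.8% of all tested genes, and I3 was the lowest of its stage for 7 of the 9, against 26.6%. The departure of the passage 63 array from its stage mean was 1.13 for Cdkn1a, 0.72 for Ccng1, 0.57 for Trp53inp1, 0.46 for Mdm2 and 0.28 for Phlda3 on the log2 scale, and -0.69 for Sesn1. With 1 array at passage 63, passage and array cannot be told apart.

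The genes whose array-by-array course was nearest to each called member were found among the 7951 other tested genes by the root mean square difference of log2(signal + 50) over the 9 arrays, each gene centred on its own mean. The 9 arrays share their scaling and their stage means, and no test was made. Nearest to Cdkn1a were Eda2r (0.21), a gene of the TNF receptor superfamily, Zmat3 (0.30), an RNA-binding zinc finger gene, and Tcim (0.33). On this measure Cdkn1a itself varied by 0.821 about its mean. Eda2r and Zmat3 are p53 targets that stood on the lists of such genes. Eda2r gave 746, 614 and 734 in MOSE-E cells, 619, 187 and 131 in MOSE-I cells and 643, 628 and 1625 in MOSE-L cells. Zmat3 gave 1218, 1253 and 1028, then 1476, 444 and 482, then 1285, 1193 and 1739. In both, as in Cdkn1a, the passage 63 array was not below the lowest MOSE-E array, those at passages 71 and 73 lay below all other arrays, and L3 was the highest of the 9. Mdm2 stood at rank 89 (0.54) in this order, at rank 192 without I1 and at rank 41 with the second Cdkn1a probe set as the reference.

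Eda2r and Zmat3 were picked for their likeness to Cdkn1a on these same arrays, so their changes repeat the course that chose them and are given without a test. The log2 change of MOSE-I over MOSE-E cells was -1.28 for Eda2r and -0.72 for Zmat3, and that of MOSE-L over MOSE-I cells was 1.59 and 0.96. With the second Cdkn1a probe set as the reference, Zmat3 was at rank 1 and Eda2r at rank 18. Ranks were computed after the data had been seen.

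**Figure D3:**
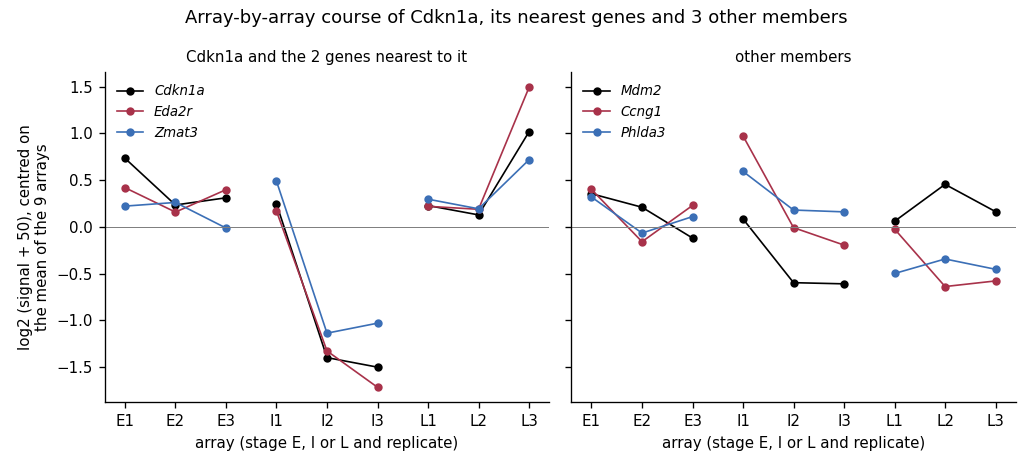
Course of log2(signal + 50) over the 9 arrays, each gene centred on its mean, for Cdkn1a, Eda2r and Zmat3 (left) and for Mdm2, Ccng1 and Phlda3 (right); lines join arrays of one stage and carry no time scale. The left curves drop on I2 and I3 and peak on L3, where Cdkn1a gave 2376 and Eda2r 1625.

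The other called genes had other neighbours, none of them on the lists of p53 genes. Those of Gadd45a were Tspan32 (0.52), Cadm4 (0.56) and Apela (0.56), of Gadd45b Rbm28 (0.27), Gask1b (0.30) and Zfp809 (0.31), and of Btg2 Unc119b (0.19), Syngr1 (0.19) and Wnt6 (0.21). Sesn1 was nearest to Mxd4 (0.28), an antagonist of Myc, Glt8d2 (0.32) and Smarca2 (0.34), a chromatin remodelling ATPase. Trp53inp1 was nearest to Shtn1 (0.37), Aldoc (0.41), a glycolytic aldolase, and Ypel2 (0.42).

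The wider pathway was followed in 9 lists with 120 genes, of which 91 were tested. Between MOSE-L and MOSE-E cells 10 of the 91 were called higher and 16 lower, against 8.11% and 7.49% of all tested genes, with a median change of -0.21 against 0.03 over all. Between MOSE-I and MOSE-E cells 2 were higher and 1 lower, against 2.29% and 3.61%. Upstream of the members, 13 regulators of p53 were tested, and limma called 0 of them between MOSE-L and MOSE-E cells (median 0.13), with 5 higher and 2 lower at an unadjusted p under 0.05. The brightest of them, the ubiquitin ligase gene Cop1, changed by -0.26 (adjusted p = 0.276). Ppp1r13b, which encodes the p53 cofactor ASPP1, was the regulator called in MOSE-I cells, at 1384, 1109 and 982 against 456, 401 and 551 in MOSE-E cells (1.21 on the log2 scale, adjusted p = 0.00646), and was chosen after its values were seen.

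Of 24 other p53 targets tested, 2 were higher and 5 lower in MOSE-L than MOSE-E cells, against 8.11% and 7.49% of all tested genes, and the median change was -0.06. The number called higher is near that share, and nothing about p53 targets is read from it. Among 7 targets in growth arrest, the phosphatase gene Ptprv was higher (1.63, SE 0.28, adjusted p = 0.00245), and the kinase gene Plk2 (-1.57, adjusted p = 0.0400), Ckap2 (-1.31, adjusted p = 0.0354) and Rap2b (-1.29, adjusted p = 0.00173, named after its values were seen) were lower. Ptprv gave 577, 649 and 479 in MOSE-L cells against 112 to 192 in MOSE-E cells. Ptprv passed the limit for testing on MOSE-L arrays alone, so it could enter the test only by being high in MOSE-L cells. Of 9 targets in cell death limma called 0 higher, as at an unadjusted p under 0.05, and 2 lower, the BH3-only gene Pmaip1, also called Noxa (-1.17, SE 0.21, adjusted p = 0.00317), and the death receptor gene Fas (-1.59, adjusted p = 0.0493). Pmaip1 was tight within 2 of the stages, at 811, 811 and 798 in MOSE-E and 362, 303 and 329.7 in MOSE-L cells. Neither Pmaip1 nor Fas passed the limit for testing on a MOSE-L array, so both entered the test only through the earlier stages. Of 8 targets in repair and metabolism only the damage recognition gene Ddb2 was called (1.11, adjusted p = 0.0293). Ddb2, like Ptprv, passed the limit for testing on MOSE-L arrays alone, with 540.5 on L2 and 621 on L3. Ptprv and Pmaip1 kept their calls without each array in turn, but with 200 added to the signal Pmaip1 changed by -0.92 and was not called. The calls of Plk2, Ckap2, Fas and Ddb2 did not: Plk2 was lost without E2 or E3, I3, or L1 or L2; Ckap2 without E1, E2 or E3, I3 or L3; Fas without E1, E2 or E3, I3, or L1 or L2; and Ddb2 without E2 or E3, or L2 or L3. Adjusted p without those arrays ran up to 0.123 for Plk2, 0.101 for Ckap2, 0.181 for Fas and 0.0881 for Ddb2. The call of Ddb2 was also lost with 200 added (0.78), that of Fas with 1 added (adjusted p = 0.0641), and those of Ckap2 (-0.78) and Ddb2 (0.99) without E1, I1 and L3 together.

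Relatives of several members were called as well. Of 11 tested relatives 5 were higher in MOSE-L than MOSE-E cells and 1, Gadd45g, lower, against 8.11% and 7.49% of all tested genes, with a median of 0.54. Btg1, the paralog of Btg2, gave 3789, 1624 and 1637 in MOSE-E, 6208, 3898 and 5275 in MOSE-I and 10026, 6995 and 17822 in MOSE-L cells, so that the 3 stages did not overlap (log2 change 2.29, SE 0.39, adjusted p = 0.00238, MOSE-L against MOSE-E). Tob1, of the same antiproliferative family, rose by 1.01 (adjusted p = 0.0292), a call lost without E2 (0.86, adjusted p = 0.110), E3 (0.85, 0.118) or L1 (0.87, 0.0730) or with 200 added (0.97), and Tob2 changed by 0.02 (adjusted p = 0.950). Trp53inp2 rose by 1.58 (SE 0.26, adjusted p = 0.00212) beside Trp53inp1, from 353, 288 and 429.7 to 1391, 1199 and 928. Trp53inp2 passed the limit for testing on MOSE-L arrays alone, so it could enter the test only by being high there. Cyclin G2 (Ccng2) rose by 1.42 (SE 0.27, adjusted p = 0.00405), from 499 to 834 in MOSE-E cells to 1128 to 2207 in MOSE-L cells beside the uncalled change of -0.57 in Ccng1. Among the sestrins Sesn3 rose by 1.57 (SE 0.31, adjusted p = 0.00510) and Sesn2 changed by 0.41 (adjusted p = 0.109). Sesn3, at 175 to 279.8 in MOSE-E cells, passed the limit for testing on MOSE-I and MOSE-L arrays alone. It could thus enter the test only by being high in the later stages. Sesn2 was not called, though its MOSE-L arrays lay above all others, with a change of 0.63 (adjusted p = 0.0256) against MOSE-I cells. Sesn3 was also called higher in MOSE-I cells (1.28, adjusted p = 0.0290), though not without E2, E3, I2 or I3, at adjusted p of 0.0847 to 0.140, nor with 200 added (0.95). Phlda1 (-0.10, adjusted p = 0.718) and Cdkn1b (0.54, adjusted p = 0.126) were not called. Nor was Gadd45gip1 (-0.40, adjusted p = 0.223), which encodes a partner of Gadd45 proteins, not a paralog, and is counted among the 11.

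**Figure D4:**
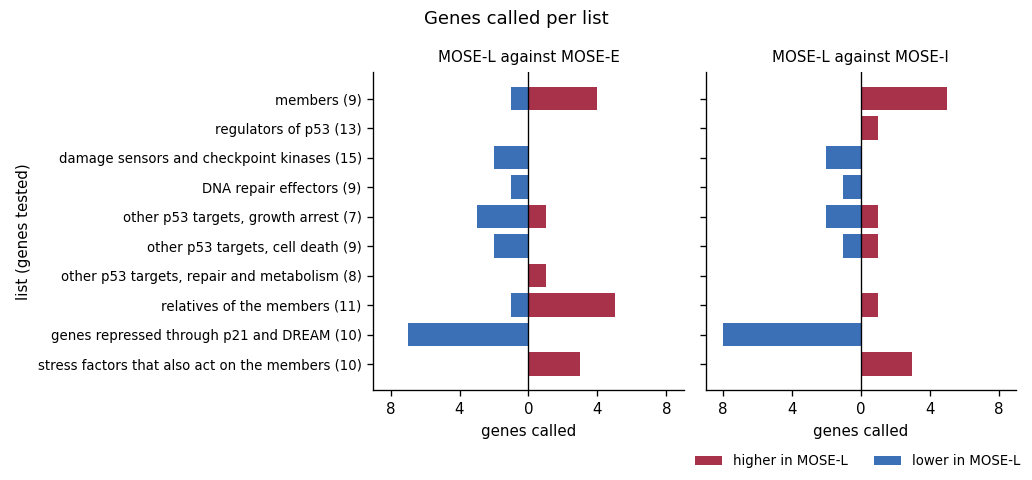
Number of genes called higher (red, to the right) or lower (blue, to the left) in MOSE-L cells against MOSE-E cells (left) and against MOSE-I cells (right), for the 9 members and for 9 lists of related genes, with the number tested in parentheses. Against MOSE-E cells, 5 of 11 relatives were higher (8.11% of all tested genes) and 7 of 10 genes repressed through p21 and DREAM were lower (7.49%).

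Stress factors that act on some of these genes beside p53, several of them in the integrated stress response, included genes that rose in MOSE-L cells. Of 10 tested, 3 were called higher against MOSE-E cells (8.11% of all tested genes) and 0 lower by limma, as at an unadjusted p under 0.05, with a median of 0.77. Ddit3, the transcription factor CHOP, gave 2274, 921 and 500 in MOSE-E, 1368, 1412 and 1297 in MOSE-I and 5404, 2985 and 13913 in MOSE-L cells (log2 change 2.51, SE 0.56, adjusted p = 0.00893). The pseudokinase gene Trib3 gave 4168, 1956 and 9843 in MOSE-L against 872 to 1995 in MOSE-E cells, with overlap (1.53, adjusted p = 0.0398). Atf3 gave 726, 702 and 2139 against 247 to 545 (1.37, adjusted p = 0.0349). In all 3, as in Gadd45a, Cdkn1a, Trp53inp1 and Btg1, L3 was the highest and replicate 2 the lowest of the stage. The rising members Sesn1 and Btg2 differed: both were highest on L1, and Sesn1 was lowest on L3. Of all tested genes 34.8% were highest of the stage on L3 and 28.3% lowest on L2. These are separate shares, not the share of genes with both. Whether the stress factors had a part in the rise of Gadd45a was not tested. Ddit3 kept its call without each array in turn. Without L3 Trib3 changed by 0.94 (adjusted p = 0.104) and Atf3 by 0.86 (adjusted p = 0.0955), and the number called on the list was 1. The call of Trib3 was also lost without E2 or E3, I1, I2 or I3 or L1, and that of Atf3 without E1 or E3. Without E3 the list had 1 call and without L2 it had 5.

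**Figure D5:**
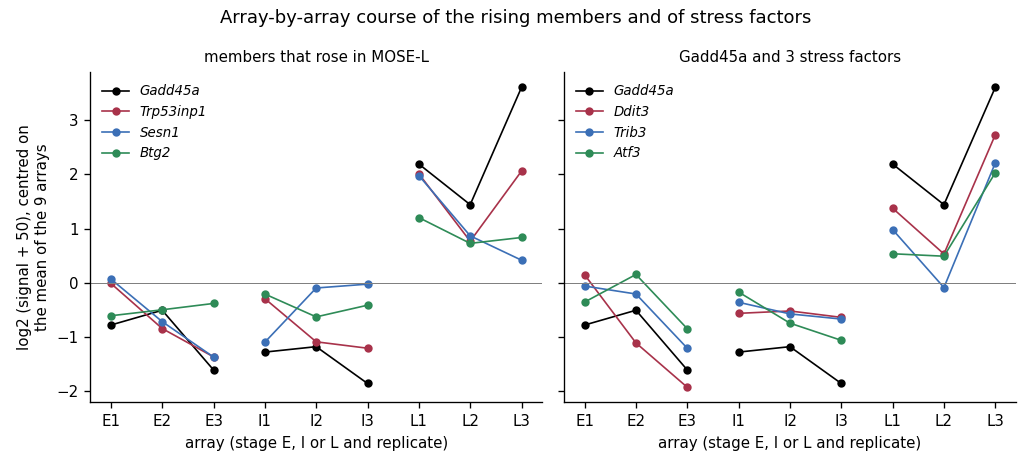
Course of log2(signal + 50) over the 9 arrays, each gene centred on its mean, for the 4 genes called higher in MOSE-L cells (left) and for Gadd45a with the stress factors Ddit3, Trib3 and Atf3 (right); lines join arrays of one stage and carry no time scale. On the MOSE-L arrays the right-hand curves are highest on replicate 3 and lowest on replicate 2, with Gadd45a at 11226 and 2460.0.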

How the data were processed

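Total RNA of 9 MOSE cultures had been hybridised to Affymetrix mouse arrays, 3 per stage. The deposited values are intensities on a linear scale, for which the authors had run MAS 5.0 and set every array's trimmed mean to 500. Detection calls were not used here. The number of arrays limits the precision of every value.

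The genes, the 9 lists and the tests were chosen with earlier results of these data known. Of 45101 probe sets 34958 named 1 gene, 932 several and 9211 none in the platform annotation, and symbols were updated by gene ID through RefSeq (GRCm38.p6), which also gave positions and promoters. After 64 controls were left out, log2(signal + 50) was fitted for the 13845 probe sets with a highest signal over 500, with 1 mean per stage over the 9 arrays, by lmFit and eBayes with trend (limma 3.58.1, R 4.3.3; 6 residual degrees of freedom, prior 4.9 at the median), and adjusted by Benjamini-Hochberg. The scale understates changes of dim genes, since 32.4% of signals lay under 50. The procedure was tested on simulated data. Named were all members, from each list the called genes, up to 3, that changed most in MOSE-L against MOSE-E cells, or else its brightest gene, list genes that are relatives of a member, and the 3 genes nearest in course to each called member. The text says where another gene was added. The study's t-test, replicate numbers as a block and other settings, 25 alternatives in all, are given at the end.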

Additional observations from a re-analysis of the deposited data

How the results depend on the processing

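In MOSE-L against MOSE-E cells 5 of the 9 genes were called. The number was 3 with 0.01 as the limit on adjusted p, 3 with the methods' t-test unadjusted (Gadd45a and Sesn1 were lost) and 0 with it adjusted, 3 with each gene's second probe set, and 3 to 5 when each array was left out in turn, with 3 without E2 or E3. In MOSE-I against MOSE-E cells it was 0. It was 1 with a highest signal over 1000, 1 with only the groups compared, 1 with the methods' t-test unadjusted, 2 without E1, I1 and L3 at once (a setting chosen after seeing the data), and 0 to 1 when each array was left out, with 1 without I1, I2, L1 or L3. In MOSE-L against MOSE-I cells it was 5. It was 3 with no filter on signals, 3 with 0.01 as the limit on adjusted p, 2 and 0 with the methods' t-test unadjusted (Cdkn1a, Gadd45a and Sesn1 were lost) and adjusted, 2 with the second probe set, and 3 to 5 when each array was left out, with 3 without E2, I2, I3 or L2. Of the list genes 26 were called in MOSE-L against MOSE-E cells, and 11 to 30 when each array was left out, with 12 without E2 and 11 without E3. The cause was not tested beyond the smaller number of arrays or the other probe sets that these settings use. Median centring, quantile normalization, a variance without trend and added values of 1 or 200 left the 3 counts of members within 1.5 times of these.

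Replicate numbers do not mark shared cultures, and deviations of arrays with the same number correlated from -0.113 to 0.410. With the replicate number as a block 5, 0 and 5 of the genes were called in the 3 comparisons, and not every array correlated best with its own number.

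Changes that turned sign were all uncalled, and ranges are those without each array in turn. In MOSE-L against MOSE-E cells Cdkn1a was at -0.11 with its second probe set, -0.09 without E1, I1 and L3 together and -0.25 to 0.20 in the range, Mdm2 at -0.18 with its second probe set and -0.06 to 0.18, Phlda1 at -0.27 to 0.04, Tob2 at -0.01 with quantile normalization and -0.03 to 0.08, and Eda2r at -0.07 without the 3 arrays and -0.12 to 0.53. In MOSE-I against MOSE-E cells Ccng1 was at -0.06 with quantile normalization, -0.14 without the 3 arrays and -0.26 to 0.33, Sesn1 at -0.08 to 0.64, Trp53inp1 at -0.44 to 0.24, and Btg2 at -0.08 without the 3 arrays and -0.03 to 0.19. In MOSE-L against MOSE-I cells Gadd45b was at -0.50 to 0.18, Gadd45g at -0.47 to 0.08 and Sesn3 at -0.00 to 0.51.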

Other observations

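Of 15 damage sensors and checkpoint kinases limma called 2 lower in MOSE-L than MOSE-E cells and 0 higher, with a median of -0.53. At an unadjusted limma p under 0.05 the numbers were 7 and 0. When each array was left out in turn 1 to 4 were called. Of all tested genes 7.49% were called lower and 8.11% higher. The 2 called with all arrays were Clspn, the adaptor that activates Chk1 at stalled forks (-1.62, SE 0.37, adjusted p = 0.0109), and H2ax, the histone variant phosphorylated at breaks (-1.60, adjusted p = 0.0305). Clspn signals were 217, 586 and 129 on the MOSE-L arrays against 762 to 1001 in MOSE-E cells. H2ax was lowest on L3, at 478, and its change was -0.87 without that array; the call was also lost without E1, E2 or E3. Brca1, needed for repair by homologous recombination, was the 1 gene called among 9 DNA repair effectors (median -0.23), at -1.39 (adjusted p = 0.0337). That call did not hold without E2 or E3, I3, or L1 or L3, where adjusted p ran from 0.0512 to 0.110, nor with 200 in place of 50 added to the signal (-0.95). The direction of the list's calls turned with L3: without it 1 gene was called higher and 0 lower, and without E1, I1 and L3 together, a setting chosen after seeing the data, 2 higher and 0 lower. With 1 added, 2 were called lower. Brca1 passed the limit for testing on MOSE-E and MOSE-I arrays alone.

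Genes that p53 represses through p21 and the DREAM complex, most of them mitotic, included many that were called lower in MOSE-L cells. Cdkn1a itself changed by 0.03 between MOSE-L and MOSE-E cells. Against MOSE-I cells it was called higher in MOSE-L cells (1.34, limma adjusted p = 0.0383), a call that depended on single arrays. Whether p21 or the DREAM complex had a part in the lower calls was not tested. Of 10 tested 7 were called lower against MOSE-E cells, with a median of -1.58, where 7.49% of all tested genes were lower. Against MOSE-I cells 8 were called lower, where 6.04% of all tested genes were. Birc5, or survivin, changed by -2.41 (SE 0.67, adjusted p = 0.0236), Cdc20 by -1.94 (adjusted p = 0.0283) and Plk1 by -1.87 (adjusted p = 0.0244). L3 was the lowest array for all 3, at 242 against 2775 and 2456 for Birc5, 1161 against 8251 and 6252 for Cdc20, and 198 against 1207 and 1417 for Plk1. Without that array 4 of the 10 were called, and without E1, E2 or E3 only 2, 1 and 1. Birc5, Cdc20 and Plk1 each lost their call without E1, E2 or E3.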
